A study of Mus musculus with 17 samples.

Results

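The regions described here are stretches of open chromatin in mouse nucleus accumbens (NAc) neurons that hold the full palindromic cAMP response element (CRE), TGACGTCA, close to their point of strongest signal. Of 145224 regions on chromosomes 1 to 19 that were called in at least 2 libraries of the same group, 718 held the whole element within 100 bp of the summit of their strongest peak. These 718 CRE regions are called members below. The element occurred once in 707 members and in 2 copies in 11.

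Chromatin was assayed by ATAC-seq, in which a transposase cuts open DNA, in NeuN-positive (neuronal) nuclei sorted from the bilateral NAc of C57BL/6 mice (C57BL/6J in the study's methods) aged 52-54 days. The 17 libraries formed 6 groups, a control and a cocaine group for each of 3 strata (females in diestrus, females in proestrus, and males), with 3 libraries in every group but the male cocaine group, which had 2. Diestrus and proestrus are the low-estrogen and high-estrogen stages of the female cycle. Cocaine mice received 10 mg/kg cocaine intraperitoneally 1 hour before tissue collection, and controls received no cocaine and stood for baseline. Whether controls were injected is not given in the sources used here, so effects of the drug and of an injection cannot be told apart. Each library pooled nuclei of 3 animals. The proestrus cocaine libraries carry the numbers 1, 2 and 4. For the second diestrus cocaine library no stage was labelled, and only its title gave the group.

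The CRE is bound as a dimer by CREB and its relatives of the CREB, CREM and ATF family. Cyclic AMP, raised for example by dopamine D1 receptor signalling, activates protein kinase A, which phosphorylates CREB and allows it to recruit the coactivators CBP and p300. Calcium entry during neuronal activity leads to the same phosphorylation. In the NAc, CREB is known for its induction by drugs of abuse and for activating neuropeptide and immediate early genes. An accessible element is not evidence of a bound factor, and binding was not measured in these libraries.

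The elements of 6 promoter members at genes known as CREB targets are shown first, since they place the motif at familiar genes. Each window holds 30 bases of GRCm38 (mm10), is written 5′ to 3′ along the gene, and has the element in capitals.
Scg2, chr1:79440076-79440105, minus strand: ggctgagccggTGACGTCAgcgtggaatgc
Pcsk1, chr13:75089768-75089797, plus strand: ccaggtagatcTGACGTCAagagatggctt
Dusp1, chr17:26508597-26508626, minus strand: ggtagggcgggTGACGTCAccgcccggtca
Ppargc1a, chr5:51553987-51554016, minus strand: ctgccttggagTGACGTCAggagtttgtgc
Cartpt, chr13:99900777-99900806, minus strand: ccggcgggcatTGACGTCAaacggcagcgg
Gem, chr4:11704364-11704393, plus strand: ggcgggagcgcTGACGTCAcggaaaagccc

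The next windows belong to 6 of the members that passed the test between cocaine and control libraries, to show promoter and distal examples, together with Rps29, one of the strongest members. The windows of the distal members at Cog5 and near Actbl2 are given on the plus strand of the chromosome.
Retreg1 promoter, chr15:25843139-25843168, plus strand: gcggccaggccTGACGTCAcaaggcaccca
Kif18a/Mettl15 promoter, chr2:109280757-109280786, minus strand: tgccgttcggaTGACGTCAgcacgtcagac
Mlf1 promoter, chr3:67374032-67374061, plus strand: cctcaccttagTGACGTCAtaaggtcatga
Tmem147 promoter, chr7:30729567-30729596, minus strand: gctgggcgctcTGACGTCActgcacgcgac
Distal, nearest to Actbl2, chr13:110990953-110990982, plus strand: tcatttaatgtTGACGTCAggttttttttt
Cog5 coding exon, chr12:31886234-31886263, plus strand: acagcccttgcTGACGTCAgtggcagatgc
Rps29 promoter, chr12:69159232-69159261, minus strand: gcggcgggccgTGACGTCActcactgtgcc

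The element was denser around the summits than farther out. Over all kept regions, 760 elements lay within 100 bp of a summit, 3.80 per bp of distance, against 361 elements at 300 to 500 bp, 0.903 per bp. The median distance between element and summit in members was 48.5 bp. With the limit set at 50 bp there were 338 members, and with 200 bp there were 1152. Just inside the limits stood the 13 members called in only 2 libraries. Just outside stood the region at Btg2, an antiproliferative early gene, whose element was centred 98 bp from the summit and so crossed the limit with its outer bases, and the region at Sik1, a salt-inducible kinase of the CREB pathway, at 105 bp.

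**Figure D1:**
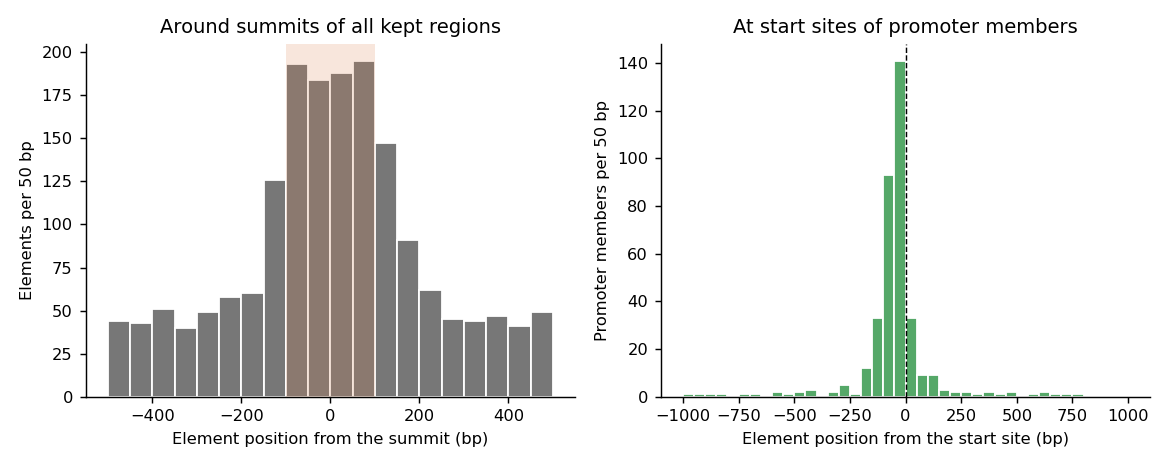
Left, number of CREs per 50 bp against their distance from the summit (bp) for all kept regions, with the window of 100 bp on either side shaded. Right, number of promoter members per 50 bp against the distance of their element from the nearest transcription start site (bp, negative is upstream), which peaks just upstream of the start with a median 43 bp upstream.

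CRE regions were promoter-rich. The summit lay within 1 kb of an annotated start site in 372 of 718 members, a share of 51.8% (Wilson 95% interval 48.2 to 55.4). Among all kept regions the share was 14.3%. It was 26.9% among the 13140 regions with only the shorter core TGACG on either strand and 7.39% among the 14565 regions with the AP-1 motif TGACTCA on either strand, the site of Fos and Jun dimers. Only 46 members also held an AP-1 motif, and 9 of these were promoters. Intervals cover counting error only, and regions are not independent replicates.

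In the 372 promoter members the element sat just upstream of the start site. In 234 of them (62.9%) it was centred within the 100 bp upstream of the start, in 45 at 100 to 200 bp upstream, in 42 within 100 bp downstream and in 51 farther away. The median position was 43 bp upstream, with quartiles at 80.5 and 8.5 bp upstream. Of these members, 340 served protein-coding genes, 376 in all, because 37 lay at start sites of more than 1 coding gene. The other 32 lay at start sites of noncoding genes only. By annotation, the elements of promoter members were intergenic in 174, in UTRs in 107, in introns in 68, in noncoding exons in 19 and in coding exons in 4.

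The 346 distal members had a median distance of 13.9 kb to a start site. Of these, 145 were within 10 kb and 52 beyond 50 kb. Their elements lay in introns in 193, between genes in 121, in coding exons in 14, in UTRs in 9 and in noncoding exons in 9.

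The base next to the element differed between both classes of members. On each strand, the base before the palindrome was G in 51.9% of cases in promoter members, against 28.4% in distal members and 30.8% over all 13824 elements on chromosomes 1 to 19. In 103 of 378 promoter elements (27.2%) G stood there on both strands, as in the Dusp1 window above. The preceding base was A in 16.1% of cases in promoter members and 32.3% in distal members. A stood there on both strands in 6 of 378 promoter elements (1.59%) and 48 of 350 distal elements (13.7%), compared with 8.69% over all elements. Promoter members were also richer in G and C, with a median GC content of 64.2% around the summit against 48.8% in distal members, and the part of this composition in the flanking base was not tested.

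Most copies of the element in the genome were not in open chromatin. Of 1758 elements within 1 kb of a start site, 897 (51.0%) lay in a kept region and 806 (45.8%) in a region called in all 17 libraries. Of 12066 elements farther away, 1299 (10.8%) lay in a kept region and 643 (5.33%) in one called in all libraries. In RefSeq promoters (GRCm38.p6, 250 bases before to 50 after each start), TGACGTCA was present in 574 of 31365 (1.83%). The element is its own reverse complement, so 1 search covers both strands. Of the promoters with the element, 81.9% overlapped a kept region and 75.8% a region called in all libraries, compared with 48.2% and 41.4% of the 30791 promoters without it.

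Members were strong and widely shared regions. The median of the highest fold enrichment, the summit pileup over local background, was 9.56 in members and 4.15 in all kept regions. All 17 libraries called 449 members (62.5%), compared with 24.9% of all kept regions. Promoter members were called in all libraries in 335 of 372 cases (90.1%), against 59.0% of all promoter regions. Distal members reached this in 114 of 346 cases (32.9%), against 19.2% of all distal regions. A further 124 members were called in 9 to 16 libraries and 145 in fewer than 9, and 131 of these 145 were distal.

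The strongest member by fold enrichment was the promoter shared by Dcaf11, which encodes an adaptor of a ubiquitin ligase, and A730061H03Rik, at 77.8. It was followed by the promoters of Rps29 (66.0), a protein of the small ribosomal subunit, and of Nup98 and Pgap2 (63.3), a nucleoporin and a factor for GPI anchors. Next came the noncoding Gm20732 (62.9) and Rn7s2 (62.0), a gene of the RNA of the signal recognition particle, whose near-identical copies make the placement of reads uncertain. In each library the value of a region is that of its highest summit there, which can lie away from the element. Relative summit enrichment (fold enrichment divided by the median of the 36170 regions called in all libraries) at Rps29 was 8.20, 9.44 and 7.95 in diestrus controls and 8.0, 8.24 and 8.32 after cocaine. It was 7.08, 9.30 and 8.89 in proestrus controls and 7.82, 9.14 and 8.02 after cocaine. Male controls had 8.02, 8.87 and 8.28, and male cocaine libraries 8.82 and 8.37. At Rps29 the cocaine and control libraries overlapped in every stratum.

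Of the 11 members with 2 elements, the strongest were the Hist1h4a promoter (histone H4, highest fold enrichment 42.8), a region at C87436 (41.8), the promoters of Braf (32.4), a kinase of the MAPK cascade, and Map1lc3a (31.8), the autophagy protein LC3A, and an intronic region of Ccl28 (22.1), a chemokine. All 5 were called in all libraries. The Hist1h4a region spans 23741327 to 23765969 on chromosome 13, a merged stretch that covers several histone genes.

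Known CREB target genes were then examined, using a list of 51 genes. Within 1 kb of a start site, 20 of them had an exact CRE, and 6 of the 51 (11.8%) had a member there. In the others the element was outside a peak or off the summit, for instance at Nr4a2, an orphan nuclear receptor (161 bp), at Crem, which encodes a repressor and activator of CRE genes (171 bp), at Ppp1r15a (117 bp) and at Ccna2 (113 bp). For Fos, Egr1, Per1, Bdnf and Penk no exact element was found within 1 kb of a start site, although all had a promoter peak in 17 libraries. This says only that these 8 letters were absent there.

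Scg2 encodes secretogranin II, a precursor of neuropeptides in dense-core vesicles. Its relative summit enrichment was 1.26, 1.35 and 1.33 in diestrus controls and 1.46, 2.48 and 2.21 after cocaine. In proestrus it was 1.75, 1.92 and 1.76 in controls and 2.23, 2.02 and 2.28 after cocaine. In males it was 1.37, 2.06 and 1.90 in controls and 1.96 and 2.17 after cocaine. All diestrus and proestrus cocaine libraries were above every control of their stage, and the male groups overlapped. The log2 difference was 0.61 (SE 0.162) in diestrus, which passed the test (limma adjusted p = 0.0161). It was 0.26 (limma adjusted p = 0.354) in proestrus and 0.24 (limma adjusted p = 0.405) in males, which did not. The diestrus call was lost without diestrus control library 3 and without diestrus cocaine library 2 or 3 (largest limma adjusted p = 0.167).

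Other CREB targets in the list did not pass in any stratum. Pcsk1, the proprotein convertase that cleaves neuropeptide precursors, had a log2 difference of 0.35 in diestrus, 0.43 in proestrus and -0.31 in males. Dusp1, a phosphatase that switches off MAP kinases, had -0.07, -0.08 and 0.43 in the same order. Ppargc1a, the mitochondrial coactivator PGC-1α, had 0.14, -0.21 and 0.07. The regions at Cartpt, the precursor of the CART peptide, and Gem, a small GTPase that inhibits calcium channels, were not called in all libraries and so were not tested. Cartpt was called in 1 of 3 diestrus controls, 3 of 3 diestrus cocaine, 1 of 3 proestrus controls, 3 of 3 proestrus cocaine, 1 of 3 male control and 0 of 2 male cocaine libraries. Gem was called in 0 of 3 diestrus controls and in 3 of 3 diestrus cocaine libraries, with fold enrichments of 3.32, 4.65 and 3.33. It was called in 2 of 3 proestrus controls and in all 8 proestrus cocaine and male libraries.

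Over all 20780 protein-coding genes on these chromosomes 1.81% had a member at a start site, and the other lists are given beside that share, with no test. Among genes of cAMP and protein kinase A signalling, 2 of 35 (5.71%) had a member, Prkar1a (a regulatory subunit of protein kinase A) and Pde7b (a phosphodiesterase that degrades cAMP). Of both, Pde7b rose in diestrus, by 0.44 on the log2 scale (limma adjusted p = 0.0399), a call that 8 of the 17 fits without a library lost. In the CREB and ATF family with its coactivators, 1 of 22 genes (4.55%) had a member, Creb5, called in 11 libraries. Of neuropeptides and their processing enzymes 4 of 28 (14.3%) had one (Cartpt, Scg2, Pcsk1 and Chgb, which encodes a granin), and only Scg2 passed the test. Of circadian clock genes 1 of 20 (5%) had one, Hlf, a clock-controlled transcription factor, which did not pass in any stratum.

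Of cytosolic ribosomal protein genes 4 of 76 (5.26%) had a member (Rpl13, Rpl27a, Rps29 and Rps9), of oxidative phosphorylation genes 2 of 81 (2.47%, Ndufa10 and Uqcrfs1) and of proteasome genes 2 of 38 (5.26%, Psmb2 and Psmb8). Uqcrfs1, the iron-sulfur subunit of complex III, rose in diestrus by 0.60 (limma adjusted p = 0.00867), and none of the others passed. The Uqcrfs1 call was lost without the same 3 diestrus libraries as that of Scg2. Of endoplasmic reticulum folding and stress genes 0 of 26, and of 16 spermatid genes driven by the CREB relative CREM 0, had a member.

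Markers of the sorted cells were checked at the promoter. All 6 neuron markers and 11 of 12 markers of medium spiny neurons had a peak in 17 libraries, and Pdyn had one in 16. Of these genes Snap25, a SNARE protein of synaptic vesicles, and Gpr6, a receptor of D2-type medium spiny neurons, had a member. Promoter peaks of glial and vascular markers were fewer, with 0 of 6 microglial and 0 of 5 endothelial markers called in all libraries. Gja1, Cx3cr1, Tmem119, Itgam, Cldn5, Flt1, Tek and Cdh5 had none. Mbp, Olig1, Cnp and Slc1a2 had a peak in 17 libraries and Gfap in 16. Astrocyte, oligodendrocyte, microglial and endothelial lists held 0 members.

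Libraries differed in how much was called. They held 74532 to 155025 peaks on chromosomes 1 to 19, and both male cocaine libraries held the fewest. The background pileup recovered from the fold enrichments, a measure of relative depth, ranged from 6.26 to 9.55 reads and was 8.15 and 7.60 in the male cocaine libraries, inside the range of the others. A region without a peak was not called at this depth and may still be accessible. Diestrus cocaine library 1 held the most peaks, and below it often stood nearer to the controls than to diestrus cocaine libraries 2 and 3.

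Of the 718 members, 576, 606 and 607 were called in diestrus controls and 637, 581 and 538 after cocaine. Proestrus controls called 560, 572 and 589 and proestrus cocaine libraries 619, 580 and 608. Male controls called 626, 616 and 623 and male cocaine libraries 517 and 495. Both male cocaine libraries were below every other library, while cocaine and control libraries overlapped in both female stages. All kept regions went the same way. Of these, the male cocaine libraries called 42.0% and 36.6%, the lowest of all libraries, and the male controls 64.4% to 70.6%.

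Promoter members changed little in this measure and distal members more. The share of promoter members called was 92.2% to 98.4% over all libraries. The share of distal members called was 75.6% ± 1.17 in male controls (SD, n = 3) and 46.2% ± 3.27 in male cocaine libraries (n = 2). Over all distal regions the shares in the single libraries were 67.0%, 61.9% and 68.3% in male controls and 37.5% and 31.7% in male cocaine libraries. No male cocaine library called 169 of the 346 distal members (48.8%), compared with 22 of 372 promoter members (5.91%). Over all 145224 kept regions this share was 54.4%, and no such share of all promoter regions is given here.

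**Figure D2:**
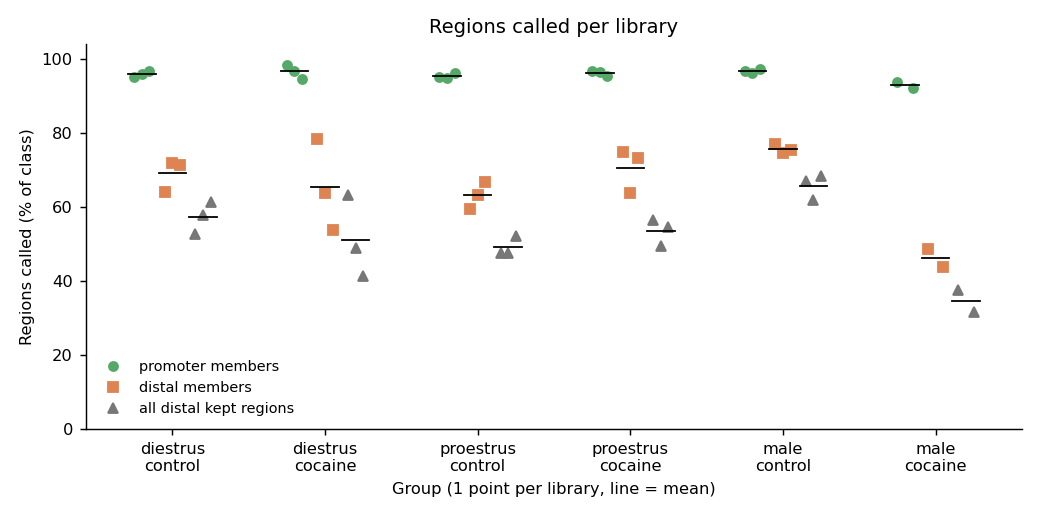
Percent of promoter members (circles), distal members (squares) and all distal kept regions (triangles) called in each library, by group, with the group mean as a line. Promoter members stay between 92.2% and 98.4% in every library, and distal members and all distal regions are both lowest in the 2 male cocaine libraries.

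Gained and lost members were counted next, where gained means called in every cocaine library and in no control library of a stratum and lost the reverse. These counts are descriptions, and calls of single regions were not tested within a stratum, where an exact test could not go below a p of 0.1. In diestrus 3 members were gained (0.418%), against 1.12% of all kept regions, and 1 was lost (0.139%), against 1.28%. In proestrus 11 were gained (1.53%), against 2.42%, and 2 were lost (0.279%), against 1.65%. In males 0 were gained, against 1.68%, and 68 were lost (9.47%), against 16.7%. With the same number of strongest peaks in each library (74532), 9 members were gained and 29 lost in males, 10 were gained in diestrus and 7 in proestrus. For these counts at equal peak number no share of all regions is given here. Each percent share of members above was below that of all regions. The 449 members called in all libraries could be neither gained nor lost. Among distal regions alone, 17.6% of members and 18.2% of all were lost in males.

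In diestrus the gained members were the Gem promoter described above, the promoter of Gprc5a (a retinoic acid-induced receptor) and an intergenic region 54.9 kb from the start site of Gm24780. Gprc5a had fold enrichments of 3.44, 4.15 and 3.10 in the diestrus cocaine libraries and the intergenic region 3.09, 3.65 and 3.79. The lost member was in an intron of Adgrl2, an adhesion receptor, with 2.45, 2.01 and 2.70 in the controls. In proestrus the gained members of highest fold enrichment were an intergenic region 74.6 kb from the start site of Cntnap2, a neurexin family member (3.61, 3.96 and 2.41), a region at the noncoding Gm24931 (2.60, 3.85 and 3.14) and one in an intron of Pde3a, a cAMP and cGMP phosphodiesterase (3.00, 4.71 and 2.41). A lost member was in an intron of Pptc7, a mitochondrial phosphatase, with 2.53, 3.83 and 2.84 in the controls. The gains were weak peaks, and the Cntnap2 region was called in all diestrus and male libraries as well.

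The named members lost in males had higher fold enrichments in male controls than the values given above for diestrus and proestrus. They are examples, and the strength of all members lost in males was not compared. The median fold enrichment of regions called in all libraries averaged 7.64 in male controls, 6.74 in diestrus controls and 5.79 in proestrus controls. Raw values are therefore not on the same scale between strata. A region in an intron of BC034090 had fold enrichments of 9.31, 7.71 and 8.56 in male controls, an intronic region of Alg9, a mannosyltransferase, had 8.67, 6.33 and 7.03, and an intronic region of 1700113H08Rik had 7.65, 6.20 and 5.93. None of them had a peak in the male cocaine libraries. In females the same regions had at most 3.81, in the libraries that called them.

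Pooling the strata, Fisher's exact test (two-sided) compared how often cocaine and control libraries called each region found in 4 to 13 of them. After Benjamini-Hochberg adjustment over 63463 regions 0 passed, so the background share was 0%, and 0 of the 163 members among them passed. At an unadjusted p under 0.05 the exact test gave 7 of the 163 members called more often and 9 called less often with cocaine. Over all 63463 regions these counts were 2364 and 5909.

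The share of all peaks of a library that held the element within 100 bp of their own summit was compared as a single value per library. It was 0.511%, 0.506% and 0.464% in diestrus controls and 0.503%, 0.640% and 0.630% after cocaine. In proestrus it was 0.527%, 0.555% and 0.513% in controls and 0.616%, 0.578% and 0.582% after cocaine. In males it was 0.483%, 0.517% and 0.457% in controls and 0.667% and 0.746% after cocaine. Of the 8 cocaine libraries 7 were above every control of their stratum, and diestrus cocaine library 1 was not.

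Under permutation of the cocaine and control labels inside each stratum, the mean difference over all 3 strata was 0.126 percentage points (exact permutation test, two-sided, p = 0.00075, adjusted over 5 tests p = 0.00375). Over both female stages it was 0.0789 points, with 5 of 6 cocaine libraries above all controls of their stage (exact p = 0.015, adjusted p = 0.0375). The female difference did not pass with only peaks whose −log10 q was 5 or more (exact p = 0.06) or without diestrus control library 3 (exact p = 0.055). The separate differences were 0.0973 points in diestrus (exact p = 0.3, adjusted p = 0.3), 0.0605 in proestrus (exact p = 0.1, adjusted p = 0.125) and 0.221 in males (exact p = 0.1, adjusted p = 0.125), where 0.1 is the smallest p these designs can give.

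In males these shares moved with the number of peaks and with the share of promoter peaks, which was 21.4% and 23.7% in the cocaine libraries and 16.3% to 16.9% in controls. In proestrus the promoter share was 16.8% to 18.9% in cocaine libraries and 18.1% to 19.1% in controls, and the share with the element was higher with cocaine. Promoter peaks held the element in up to 2.08% of cases and other peaks in up to 0.358%. With the same number of strongest peaks in each library the male difference was -0.00492 points (exact p = 0.8), and the mean over all strata was 0.0455 points (exact p = 0.013). Among peaks farther than 1 kb from start sites the mean over all strata was 0.0511 points. Its unadjusted p was the smallest the permutations can give (exact p = 0.00025). In these peaks all 8 cocaine libraries were above the controls of their stratum. The diestrus cocaine libraries had 0.298%, 0.346% and 0.302%, those of proestrus 0.358%, 0.325% and 0.322%, and the male ones 0.294% and 0.334%. Controls ranged from 0.243% to 0.286%. The exact p-values of this paragraph lie outside the adjusted tests above. For peaks farther than 1 kb from start sites no difference at equal peak number is given here. The part of peak number in that difference was therefore not tested.

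**Figure D3:**
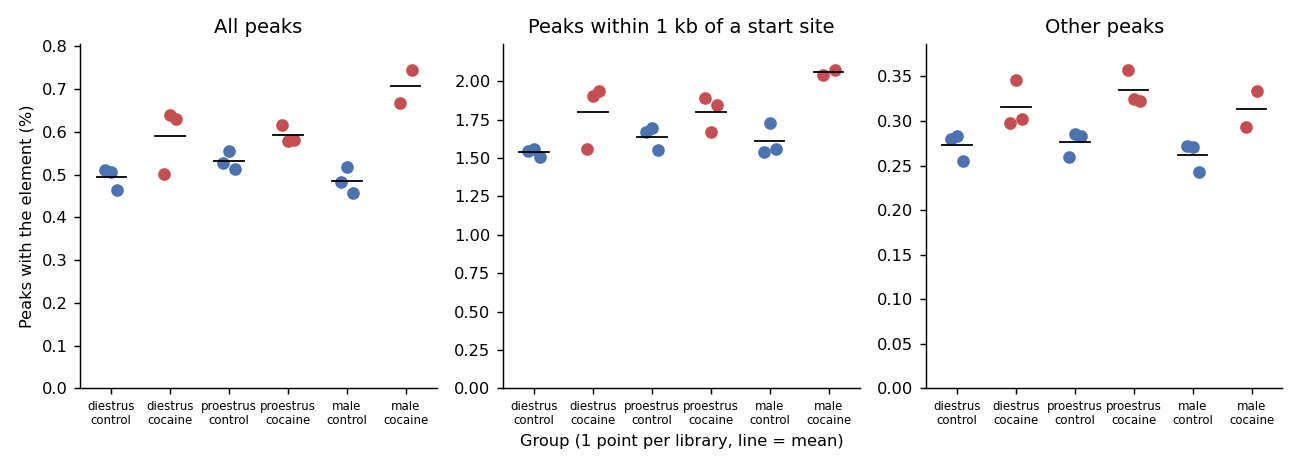
Percent of peaks with the CRE within 100 bp of their summit in each library, for all peaks, peaks within 1 kb of a start site and other peaks (blue, control; red, cocaine; line, group mean; axes start at 0). Among the other peaks the cocaine libraries of each stratum sit above its controls, between 0.294% and 0.358%.

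The height of the signal was compared in the 36170 regions called in all libraries, which included 449 members, 335 of them promoters and 114 distal. The value was the log2 of the highest summit fold enrichment of a library in the merged region, after subtraction of the library median. This summit can differ between libraries and lie away from the element, and promoter members had a median width of 2640.5 bp. Differences were tested with limma over all 17 libraries with Benjamini-Hochberg adjustment over the 36170 regions. Members that only some libraries called could not enter this test.

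In diestrus, 76 members (16.9%) were higher after cocaine and 5 (1.11%) lower, while 6.38% of all tested regions were higher and 4.77% lower. The median log2 difference was 0.15 in members and 0.02 in all tested regions. Among promoters, 68 of 335 members (20.3%) were higher and 1 lower, against 10.8% and 2.99% of all 12241 promoter regions. Among distal members 8 of 114 (7.02%) were higher and 4 (3.51%) lower, against 4.14% and 5.68% of all distal regions. Per library, the median log2 level of promoter members was 1.01, 1.11 and 0.94 in controls and 1.16, 1.42 and 1.24 after cocaine. The medians of all promoter regions were 0.68, 0.83 and 0.67 in controls and 0.79, 0.90 and 0.80 after cocaine.

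The count of higher members rested on single libraries, while scaling moved mainly the count of lower ones. Without diestrus cocaine library 2 only 2 members were higher, against 142 of all 36275 regions, and without diestrus cocaine library 3 only 7, against 206 of 37441. Without diestrus control libraries 1, 2 and 3 in turn 47, 37 and 13 were higher. Over all regions these counts were 1597 of 36400, 1095 of 36290 and 401 of 36227. Without diestrus cocaine library 1 there were 128 higher and 36 lower, against 5172 and 4611 of 36190 regions. When both the libraries in the fit and the regions tested were limited to the groups compared, 491 members were left. Of these 15 were higher and 1 lower, against 456 and 401 of all 46785 regions. After quantile normalisation 78 members were higher and 14 lower, against 2411 and 2283 of all 36170 regions. With centring within bins of equal GC content there were 64 higher and 13 lower, against 2121 and 2538 of all 36170 regions. The median was then 0.11 in members against -0.01 in all regions.

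The 6 diestrus members with the smallest p were all promoters and all higher. Retreg1, a receptor for selective autophagy of the endoplasmic reticulum, had relative enrichments of 0.90, 1.11 and 0.86 in controls and 1.48, 1.90 and 1.89 after cocaine. The groups did not overlap, and the log2 difference was 0.87 (SE 0.161, limma adjusted p = 0.00247). The promoter shared by Kif18a, a mitotic kinesin, and Mettl15, a mitochondrial RNA methyltransferase, had 2.18, 2.24 and 2.03 in controls and 2.88, 4.09 and 4.15 after cocaine, a log2 difference of 0.77 (SE 0.143, limma adjusted p = 0.0027). Mlf1, a myeloid leukemia factor, had 1.24, 1.5 and 1.65 in controls and 1.79, 3.15 and 3.38 after cocaine, a log2 difference of 0.88 (SE 0.173, limma adjusted p = 0.00313).

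In these promoters cocaine library 1 stood between the controls and the other 2 cocaine libraries. The other named promoters were Osgepl1, a mitochondrial tRNA-modifying enzyme (0.75), Fam174a (0.73) and Trnt1, which adds the CCA end to tRNAs (0.73), with limma adjusted p-values of 0.00422, 0.00399 and 0.00422. Single members were refitted with quantile normalisation, with centring by GC content, with the replicate number, with the last 2 together and without each library, 21 refits in all. Retreg1 and Kif18a/Mettl15 passed in every refit, and the other 4 passed in all but the fit without diestrus cocaine library 2.

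**Figure D4:**
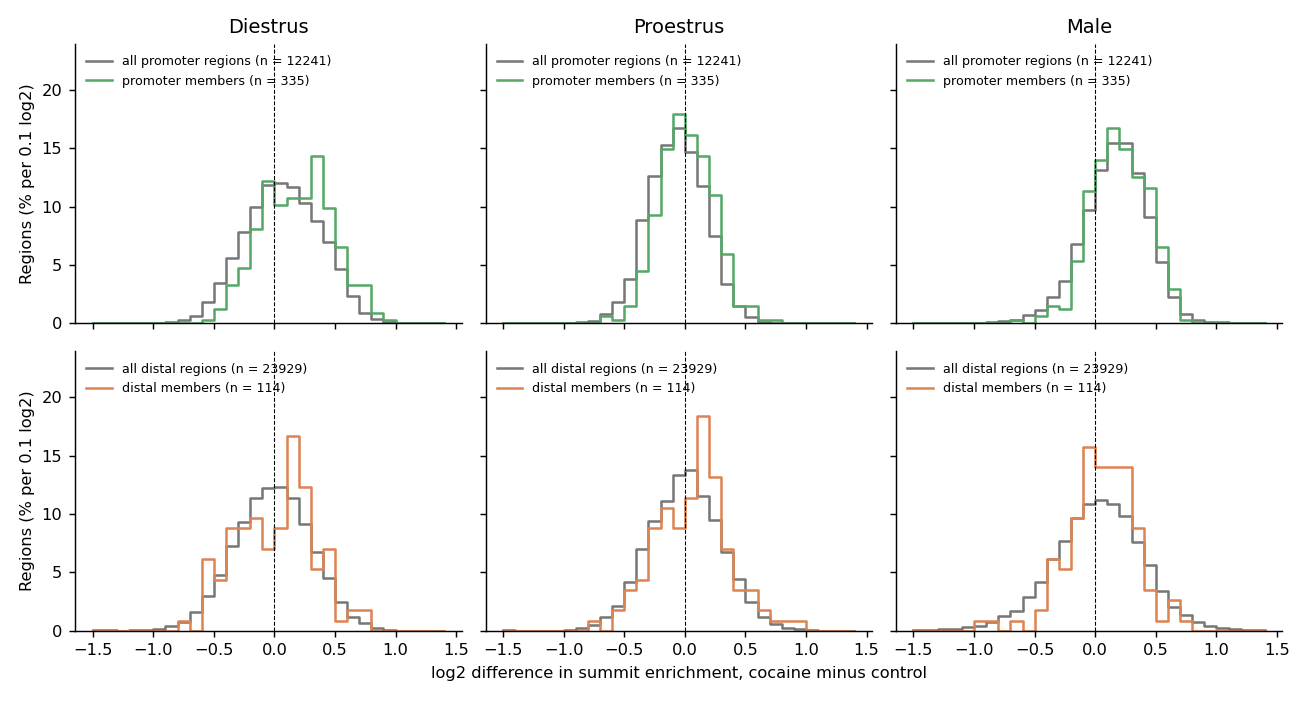
Distribution of log2 differences in summit enrichment, cocaine minus control, in bins of 0.1, as percent of regions, for promoter members (top, green, n = 335) and distal members (bottom, orange, n = 114) with all regions of the same kind (grey). In diestrus the promoter members lie to the right of all promoter regions, with a median of 0.19 against 0.07, and in males both curves are shifted, with medians of 0.20 and 0.18.

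In proestrus, 7 members (1.56%) were higher and 3 (0.668%) lower after cocaine, against 1.59% and 1.95% of all tested regions. The median was 0.03 in members and -0.02 in all regions. Of distal members 5 of 114 (4.39%) were higher, against 2.24% of all distal regions. After quantile normalisation 16 members were higher and 5 lower, against 956 and 889 of all 36170 regions. Here too 1 library weighed heavily, since without proestrus cocaine library 2 there were 12 higher and 28 lower. Over all 36312 regions of that fit 1423 were higher and 2447 lower. Without any other single proestrus library 1 to 3 were higher and 0 to 1 lower, and without diestrus cocaine library 1 or 3 there were 13 higher.

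The member with the smallest p in proestrus was an intergenic region on chromosome 13 (110990470 to 110991648), with Actbl2 as the nearest coding gene at a distance of 264021 bp. Its relative enrichment was 0.98, 1.14 and 0.94 in controls and 2.05, 1.42 and 1.93 after cocaine. The groups did not overlap, and the log2 difference was 0.81 (SE 0.158, limma adjusted p = 0.00576). In diestrus the same region had 1.62, 1.45 and 1.48 in controls and 1.81, 2.21 and 1.85 after cocaine, a log2 difference of 0.36 that did not pass (limma adjusted p = 0.125).

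A further intergenic region, nearest to Cxcl12 at 96528 bp, a chemokine gene, rose by 0.91 (limma adjusted p = 0.00601), and an intronic region of Atp9b, a phospholipid flippase, by 0.76 (limma adjusted p = 0.0111). An intergenic region nearest to Ap1s3 rose by 0.49 (limma adjusted p = 0.0317). Lower after cocaine were an intergenic region nearest to Eomes, a T-box factor (-0.77, limma adjusted p = 0.0134), and the promoter of Nfkbid, a regulator of NF-κB (-0.65, limma adjusted p = 0.0275). Nfkbid did not pass after centring by GC content (adjusted p = 0.0558 by limma). The call nearest to Actbl2 passed without each library in turn, among the fits without a library that nearest to Cxcl12 was lost only without proestrus cocaine library 1, and each of the other 4 was lost without at least 1 further proestrus library.

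The overlap of higher members between the strata was counted beside that of all tested regions. Of 76 members higher in diestrus and 7 higher in proestrus, 3 were shared, 3.95% of the first and 42.9% of the second. Over all tested regions the shares were 9.36% and 37.6%. The shared members were the promoters of Mlf1 and Cenpe, a centromere-associated kinesin, and the region nearest to Ap1s3, and each of the 3 proestrus calls was lost without any of 5 of the 6 proestrus libraries. Diestrus and males shared 1 of 28 male members (3.57%), at the Dlx6 promoter, and proestrus and males 0. Over all tested regions the overlap with diestrus was 4.64% and that with proestrus 3.97% of those higher in males.

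In males, 28 members (6.24%) were higher after cocaine and 4 (0.891%) lower, against 5.78% and 4.08% of all tested regions. The median was 0.16 in members and 0.09 in all regions. Among promoters 26 of 335 members (7.76%) were higher, against 5.85% of all promoter regions, and their medians were 0.20 and 0.18. The split shifted with scaling, to 9 higher and 4 lower after quantile normalisation and 15 and 5 after centring by GC content. Over all 36170 regions the counts were 1274 and 1853 after quantile normalisation and 2288 and 1928 after centring by GC content. When both libraries and regions were limited to the male groups, which left 475 members, 118 were higher and 6 lower. Of all 42857 regions in that fit 6625 were higher and 2782 lower. Without either male cocaine library most of the 28 higher calls were lost, and a single library was left. The median was then 0.15 in members and 0.10 in all regions without library 1, and 0.21 and 0.12 without library 2. Without male control library 2 there were 10 higher and without male control library 3 there were 9. Leaving out a female library also moved this count, to 69 without proestrus cocaine library 2, 56 without diestrus cocaine library 3 and 45 without diestrus cocaine library 1. Over all regions, 3913 of 36312, 3245 of 37441 and 2839 of 36190 were higher in these 3 fits. Without male control libraries 2 and 3 in turn, 1244 of 36432 and 1254 of 36242 regions were higher.

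The member with the smallest p in males lay in a coding exon of Cog5, which encodes a subunit of a Golgi tethering complex. Its relative enrichment was 1.48, 1.46 and 1.28 in male controls and 0.78 and 0.63 after cocaine. The groups did not overlap, and the log2 difference was -1.0 (SE 0.185, limma adjusted p = 0.000531). In females the same region had 0.81 to 1.06 in controls and 0.84 to 1.21 after cocaine.

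Tmem147, whose product is an endoplasmic reticulum membrane protein, had 2.17, 1.5 and 1.72 in male controls and 2.80 and 3.26 after cocaine, a log2 difference of 0.77 (SE 0.181, limma adjusted p = 0.00571). A region in a UTR of Sez6l, nearest to the start site of Asphd2, rose by 0.79 (limma adjusted p = 0.0056), and an intronic region of E2f6, a repressor of the E2F family, was lower by -0.83 (limma adjusted p = 0.00645). The promoters of the pseudogene Tmem250-ps (0.61, limma adjusted p = 0.0139) and of Ccdc86 (0.60, limma adjusted p = 0.0166), a nucleolar protein gene, were higher. The calls at Cog5, Asphd2 and Tmem147 were lost without male cocaine library 2, and those at E2f6, Tmem250-ps and Ccdc86 without either male cocaine library. Tmem250-ps was also lost without male control library 2, and Ccdc86 without male control library 2 or 3.

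**Figure D5:**
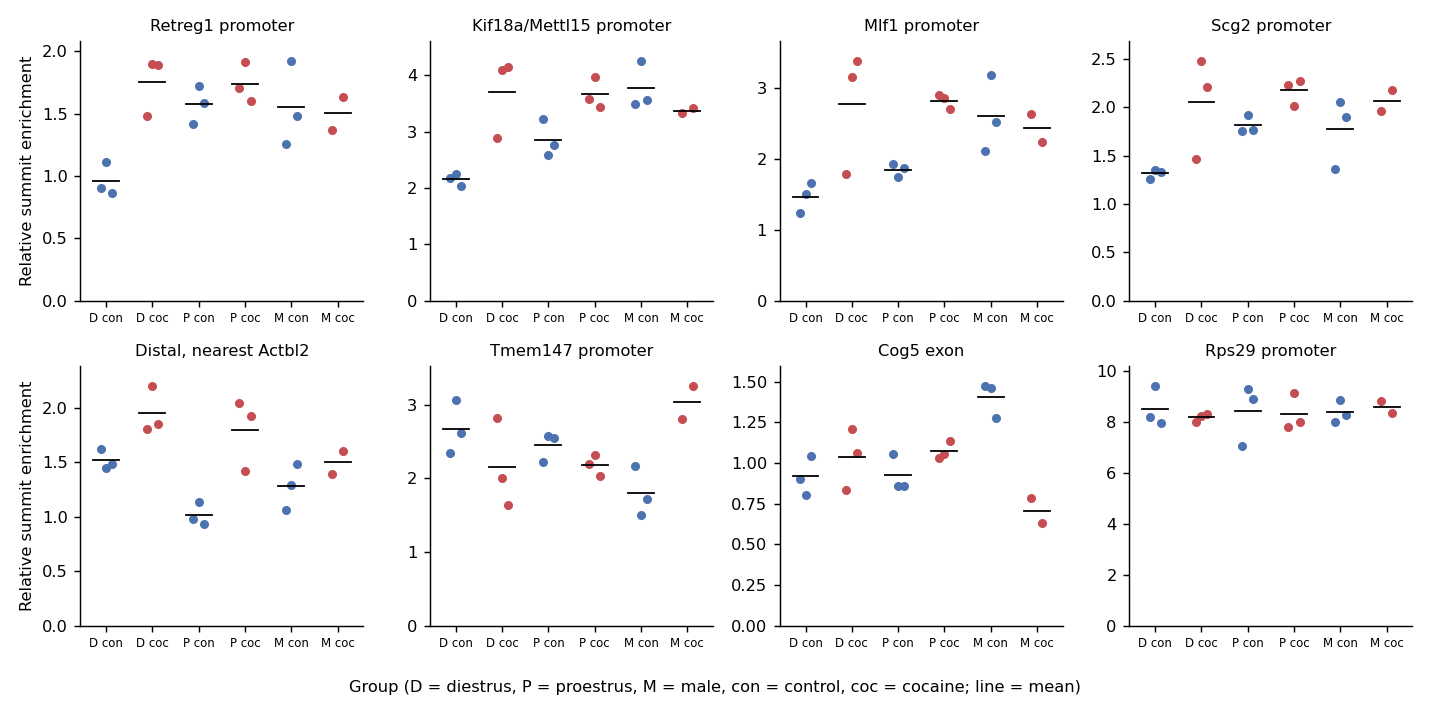
Relative summit enrichment (fold enrichment divided by the library median, linear axis from 0) of 8 members in each library, by group (D, diestrus; P, proestrus; M, male; blue, control; red, cocaine; line, group mean). Retreg1 separates in diestrus, the region nearest to Actbl2 separates in proestrus, Cog5 (lower) and Tmem147 (higher) separate in males, and Rps29 stays between 7.08 and 9.44.

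Whether the cocaine difference itself differed between groups was tested in the same model. Between males and the mean of both female stages, 53 members (11.8%) had a higher and 18 (4.01%) a lower difference in males, against 12% and 6.6% of all tested regions. This split reversed with scaling, to 33 and 49 after centring by GC content and to 40 and 55 after quantile normalisation. Over all 36170 regions the counts were 4123 and 3156 after centring by GC content and 3534 and 3615 after quantile normalisation. Without male control library 2 there were 25 and 5, without diestrus cocaine library 1 there were 80 and 49 and without proestrus cocaine library 2 there were 105 and 22. Over all regions these counts were 2391 and 1059 of 36432, 6313 and 3775 of 36190, and 7164 and 2945 of 36312. Without either male cocaine library fewer members passed, and a single library was left. The median was then 0.06 in members and 0.08 in all regions without library 1, and 0.11 in both without library 2. The 6 members with the smallest p kept their direction and passed in all 21 refits. They were the Sez6l region nearest to Asphd2 (1.22), the promoters of Amz1, a metallopeptidase (1.19), of Emc10 and Fam71e1 (1.13) and of Tmem147 (1.02), the Cog5 exon (-1.19) and the Cenpe promoter (-1.20), with limma adjusted p-values of 0.000401, 0.0016, 0.0017, 0.00186, 0.000471 and 0.00357. Cenpe had relative enrichments of 1.06, 1.19 and 0.83 in diestrus controls and 1.06, 2.52 and 2.64 after cocaine, and 1.45, 1.16 and 1.17 in proestrus controls and 2.06, 2.14 and 2.14 after cocaine. In males it had 1.78, 2.57 and 2.18 in controls and 1.65 and 1.70 after cocaine.

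Between proestrus and diestrus, 0 members had a cocaine difference that was higher (0.00553% of all regions) or lower (0% of all regions) by limma. At an unadjusted p under 0.05 there were 39 of the 449 members, against 2376 of all 36170 regions. The median of this difference was -0.14 in members and -0.04 in all regions. Thus the larger count in diestrus was not shown to differ from that in proestrus at any single member.

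Baseline differences between controls were also examined. Proestrus controls were higher than diestrus controls at 4 members (0.891%) and lower at 0, against 0.102% and 0.196% of all tested regions. The median was 0.16 in members and 0.04 in all regions. The 4 were the promoters of Retreg1 (0.72), of Ddx51 and Noc4l (0.70), which act in ribosome biogenesis, and of Ranbp6 (0.67), an importin-like protein, and an intergenic region nearest to Mir6380 (0.68), with limma adjusted p-values of 0.0378, 0.0405, 0.0442 and 0.0376. None of them passed after centring by GC content, where 0 members were higher and 1 lower, against 56 and 156 of all 36170 regions. Without any one of the 6 control libraries of both stages, 0 or 1 member was higher, as it was 0 without male control library 3 or male cocaine library 1. Retreg1 was 1.42, 1.72 and 1.59 in proestrus controls, near the diestrus cocaine values, and its diestrus controls were the lowest of all groups. The diestrus comparison with cocaine used the same controls.

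Male controls differed from the mean of both female controls at 96 members, 47 higher (10.5%) and 49 lower (10.9%), against 10.7% and 14.4% of all tested regions. The smallest p belonged to an intergenic region 57.5 kb from the start site of Ppp2r5c, a subunit of protein phosphatase 2A. Diestrus controls had 0.94, 0.97 and 1.12, proestrus controls 0.89, 0.78 and 0.89, and male controls 0.49, 0.59 and 0.43. The male values lay below all female ones. The log2 difference was -0.89 (SE 0.149, limma adjusted p = 4.46e-05). Lower in males were also the Sez6l region nearest to Asphd2 (-0.84), the region nearest to Eomes (-0.82) and an intronic region of Trak1, an adaptor of mitochondrial transport (-0.72). Cenpe (0.93) and Kif18a/Mettl15 (0.60) were higher in males. Their limma adjusted p-values ranged from 5.85e-05 to 0.00053, and these 6 passed in all 21 refits. The counts over members fell to 17 higher and 24 lower without male control library 2 and to 20 and 23 without male control library 3. Over all regions they were 2143 and 3031 of 36432, and 2332 and 3151 of 36242. Sex and the absence of a cycle stage cannot be told apart in these groups.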

How the data were processed

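The authors aligned ATAC-seq reads to mm10 with BWA and ran MACS2 on every library separately. The deposited peaks gave a score (not used), a ratio of summit pileup to local background (fold enrichment), and p and q on the −log10 scale, without normalization between libraries. The authors tested read counts with DESeq2, but no counts were used here.

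Peaks of all 17 libraries on chromosomes 1 to 19 were merged where they overlapped. Regions called in 2 or more libraries of 1 group were kept, and TGACGTCA was searched within 100 bp of the summit of the peak with the highest fold enrichment in GRCm38, with GENCODE vM21 start sites. Promoters were within 1 kb of a start site. The log2 of the highest fold enrichment of each library in a region was centred on the library median. It was tested with limma 3.58.1 (R 4.3.3) at an adjusted p of 0.05. Shares were compared with exact permutation tests (Python 3.11.15, scipy 1.17.1). The calculations were checked on simulated data. Replicate numbers did not pair the libraries.

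The text names CREB target genes with a promoter member, the up to 6 members of smallest p per comparison, 3 gained and 3 lost per stratum, the 5 strongest, 5 with most elements, and up to 4 examples per list, and 1 lost member is not reported here. Members and lists were chosen with earlier results of these data known. Alternatives were quantile normalisation, centring in 20 bins of GC content, a replicate block, a stricter peak list (−log10 q from 5), the same number of strongest peaks, other distances, and leaving out each library. P-values measure the spread between pooled libraries.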

Additional observations from a re-analysis of the deposited data

Results flagged for a closer look

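The cocaine difference in summit enrichment differed between males and the mean of both female stages at 71 members by limma's test of that difference. It was higher in males at 11.8% and lower at 4.01% of members, against 12% and 6.6% of all tested regions. Members thus did not exceed all regions in either direction. The split reversed to 33 higher and 49 lower after centring by GC content and to 40 and 55 after quantile normalisation. Over all 36170 regions these counts were 4123 and 3156, and 3534 and 3615. The 6 with the smallest p were the Sez6l region nearest to Asphd2 (log2 difference of differences 1.22), the Cog5 exon (-1.19), the Amz1 promoter (1.19), the Emc10/Fam71e1 promoter (1.13), the Tmem147 promoter (1.02) and the Cenpe promoter (-1.20). At Asphd2 and Cenpe the male and female controls already differed, by -0.84 and 0.93. The male estimate rests on 2 cocaine libraries, and fewer members passed without either of them.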

How the results depend on the processing

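Counts are members higher and lower by limma unless named otherwise, in the order of the comparisons in the text, and the causes of these shifts were not tested beyond the change of setting itself. Quantile normalisation gave 14 lower in diestrus, 16 and 5 in proestrus, 9 higher in males, 1 lower in proestrus against diestrus controls and 55 lower for the male minus female effect. Centring by GC content gave 13 lower in diestrus, 15 higher in males, 0 and 1 between stages in controls and 33 and 49 for the male minus female effect. The same-numbered libraries did not deviate together (correlations -0.29 to 0.43 over 36 pairs, 7 above 0.1). The replicate block gave 1 and 1 in proestrus, 18 higher in males and 35 higher for the male minus female effect, and with GC centring added after the data were seen it gave 12 lower in diestrus, 2 and 1 in proestrus, 10 higher in males, 0 and 1 between stages and 22 and 34 for the male minus female effect. The block moved no other count of calls by over 1.5 times. In proestrus the call nearest to Cxcl12 was lost with the block and that nearest to Actbl2 with the block and GC centring.

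The stricter peak list (−log10 q from 5) gave 8 lower in diestrus, 8 gained and 0 lost members in diestrus, a promoter share of 56.5%, and a difference in the share of peaks with the element over both female stages of 0.0869 points (exact p = 0.06). With regions called in the groups compared, counts were 15 and 1 in diestrus, 118 higher in males, 21 and 9 between stages and 81 lower between male and female controls. With the same number of strongest peaks, gained members were 10 in diestrus, 7 in proestrus and 9 in males, 29 were lost in males, and the male difference in share was -0.00492 points. The element within 50 bp or 200 bp gave 338 or 1152 members, 212 or 675 of them in every library. The promoter share was 58.4% within 3 kb and 47.4% at coding start sites only.

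Leaving out each library in turn gave 2 to 128 higher and 0 to 36 lower in diestrus, 1 to 13 and 0 to 28 in proestrus, 1 to 69 and 0 to 4 in males, 0 to 10 and 0 to 3 between stages, 17 to 54 and 23 to 59 between male and female controls, 9 to 105 and 3 to 49 for the male minus female effect, and 0 to 1 in either direction for the proestrus minus diestrus effect. Gained members were 5 to 11 in diestrus, 11 to 32 in proestrus and 0 to 1 in males, and lost members 1 to 33, 2 to 8 and 77 to 91. Leaving 1 male cocaine library counts only gains in regions that some other group keeps. The share difference ranged from 0.0666 to 0.101 points over both female stages (exact p = 0.055 without diestrus control library 3). Of 1029 refits of named members 846 were past the threshold, 183 were not and 0 reversed. How depth bears on the calls was not tested, and a region without a call may still be accessible.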

Other observations

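Among the 376 protein-coding genes with a member at a start site, 14 (3.72%) had symbols starting with Zfp, the zinc finger protein genes, compared with 1.87% of 20780 protein-coding genes on the same chromosomes. Of these 14, 10 were on chromosome 13 (Zfp457, Zfp458, Zfp493, Zfp595, Zfp65, Zfp72, Zfp87, Zfp874a, Zfp874b and Zfp953). This group was noticed after the members were seen and was not tested, and neighbouring zinc finger genes can have near-identical sequence, so the placement of reads between them is uncertain.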
